A study of Homo sapiens with 6 samples.

Results

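NRF2, the transcription factor encoded by NFE2L2, is the main activator of antioxidant and detoxification genes in liver cells. The genes described here are NFE2L2, KEAP1, which encodes the repressor of NRF2, and 7 genes known as NRF2 targets, namely NQO1, HMOX1, GCLC, GCLM, SRXN1, TXNRD1 and OSGIN1. They were taken from the count table by gene symbol, 9 of the 20030 genes listed in the count table, and all 9 were among the 12369 that passed the filter on low counts. HepG2, an established human hepatoma line, was infected with a lentivirus that carried a control shRNA in 3 of the libraries, called sh-ctrl, and an shRNA targeting KIF11 in the other 3, called sh-KIF11, and both groups were selected with puromycin. An shRNA is a short hairpin RNA that directs cleavage of a matching mRNA, and KIF11 is a kinesin motor that separates the spindle poles in mitosis. Poly(A) RNA was sequenced, and no time after infection is given in the labels.

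In unstressed cells the KEAP1 protein holds NRF2 in the cytoplasm and presents it to a CUL3 ubiquitin ligase, so that NRF2 is continually degraded. Oxidants and electrophiles modify cysteines of KEAP1, NRF2 then escapes degradation, enters the nucleus, pairs with a small MAF protein and binds antioxidant response elements near its targets. NRF2 activity is therefore set largely by protein stability, which mRNA counts do not measure.

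The 6 libraries held between 18167773 and 19583282 counts. KIF11, the targeted gene, was measured at 110.8, 115.7 and 120.8 CPM (counts scaled to library size, with TMM factors) in the sh-ctrl libraries and at 72.17, 71.4 and 62.87 CPM in the sh-KIF11 libraries. Its log2 fold change was -0.75 (SE 0.0573, adjusted p = 4.22e-15, edgeR quasi-likelihood test with Benjamini-Hochberg adjustment), so that KIF11 mRNA was reduced but not removed. Much of the transcriptome differed between the groups: 34.4% of the 12369 tested genes were called higher in sh-KIF11 and 34.7% lower at an adjusted p under 0.05, so that a call by itself was common. Of 11 genes that mark HepG2 cells, such as ALB and AFP, 10 were called lower and none higher, and their summed level, 31790 to 32780 CPM in the sh-ctrl libraries, was 16800 to 17640 CPM in the sh-KIF11 libraries. The count depended in part on the scaling. In the deposited FPKM values, explained below, ALB (mean 3586 against 1417 in sh-KIF11) and AFP (1056 against 493.1) were lower too. KRT8 was not (844.2 against 847.8), and the FPKM ranges of APOB and KRT18 overlapped between the groups. In bulk RNA, fewer cells expressing a gene cannot be told apart from less of its RNA per cell. Markers of other cells stayed low, with the fibroblast list summing to at most 3.934 CPM, the endothelial list to at most 4.984 CPM and the kidney list to at most 0.3042 CPM in any library. The immune list summed to between 77.97 and 89.09 CPM in sh-ctrl and to between 41.77 and 46.24 CPM in sh-KIF11, nearly all of it CD68, a lysosomal gene that is not particular to immune cells, while PTPRC, which defines leukocytes, had a mean of at most 0.01847 CPM in either group. The part of these marker changes in the results that follow was not tested. The labels do not say that the libraries came from separate cultures, so p-values measure only the spread between these libraries, and an exact permutation test of 3 against 3 cannot go below 0.1, the two-sided value that each of the 9 genes gave.

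Of the 9 genes, 7 rose in sh-KIF11 cells (NFE2L2, HMOX1, GCLC, GCLM, SRXN1, TXNRD1 and OSGIN1) and 2 fell (KEAP1 and NQO1). Among all tested genes 34.4% were called higher and 34.7% lower, and 69.1% were called in either direction. In each of the 9 genes the libraries of one group lay wholly outside the range of the other, which held for 71.2% of all tested genes. The median log2 fold change of the 9 genes was 0.38, beside a median of 0.00 and quartiles of -0.31 and 0.36 over all tested genes. The changes were mostly modest. GCLM alone passed 2-fold, as did 8.13% of tested genes in the upward direction.

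**Figure D1:**
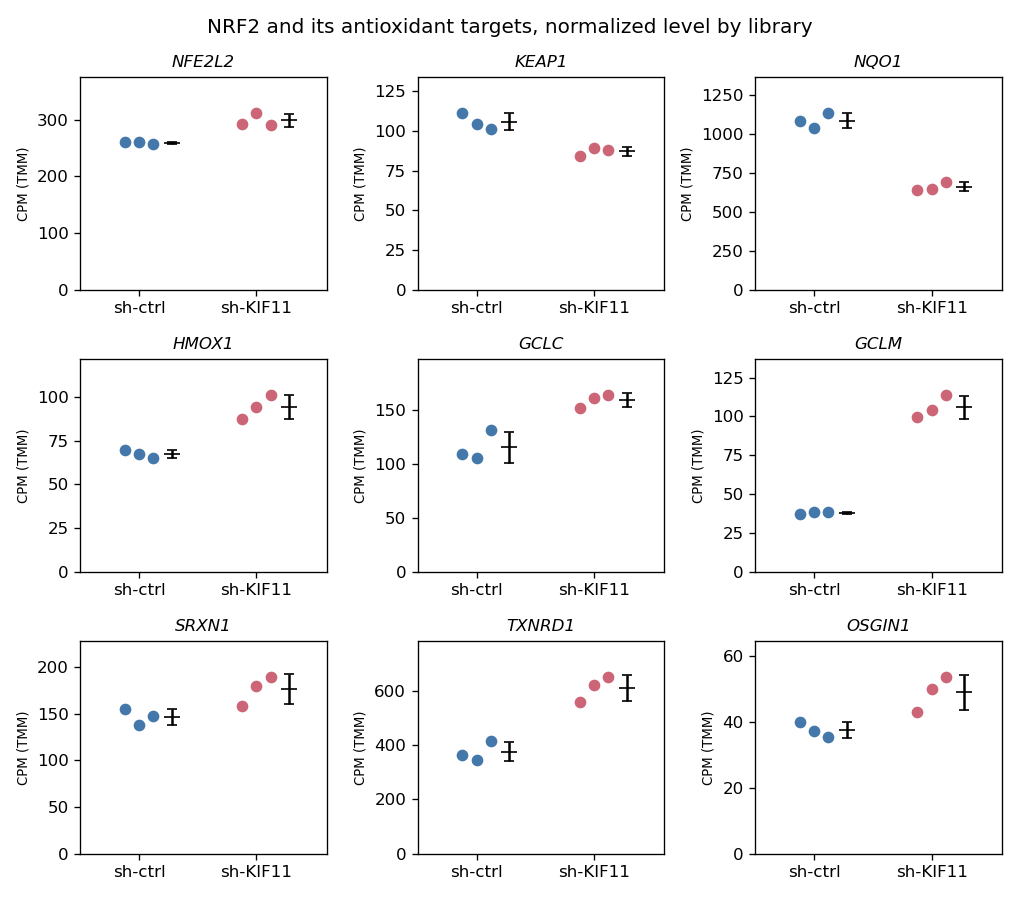
Normalized level (CPM with TMM factors, y axis from 0) of each of the 9 genes in the 3 sh-ctrl (blue) and 3 sh-KIF11 (red) libraries; points are libraries, and the black marks give the group mean with 1 SD. In every panel the groups are apart, with NQO1 and KEAP1 lower in sh-KIF11 and the other 7 genes higher.

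NFE2L2 (GRCh38 chromosome 2, 177227595 to 177392697, minus strand) was measured at 259.7, 260.8 and 256.7 CPM in sh-ctrl and at 293.2, 312.5 and 290.8 CPM in sh-KIF11. The sh-ctrl libraries were nearly level and every sh-KIF11 library lay above them. The rise was 1.153-fold, with a log2 fold change of 0.21 (SE 0.0483, adjusted p = 2.52e-04, edgeR). This was a small change in this experiment, since 32.8% of tested genes had a smaller one in size. In the annotation the NFE2L2 gene overlaps AGPS on the opposite strand, and the sources used here do not give the strand setting of the counting.

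KEAP1 (chromosome 19, 10486120 to 10503741, minus strand), the adaptor that targets NRF2 for degradation, was measured at 111.6, 104.4 and 101.1 CPM in sh-ctrl and at 84.03, 89.42 and 88.12 CPM in sh-KIF11. All sh-KIF11 libraries were below all sh-ctrl libraries on this scale. The log2 fold change was -0.28 (SE 0.0541, adjusted p = 1.87e-05, edgeR). This call depended on the scaling. With library totals alone as the scale, the log2 fold change of KEAP1 was -0.05 and the adjusted p was 0.439, and in the deposited FPKM values (fragments per kilobase of transcript, scaled to library size) the ranges of 23.66 to 26.0 in sh-ctrl and 22.66 to 24.52 in sh-KIF11 overlapped. On the FPKM scale the other 8 genes kept their groups apart.

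The FPKM values correct for transcript length and so allow genes to be set against each other within a library, where the scaling of the library cancels. The ratio of NFE2L2 to KEAP1 in FPKM was 2.28, 2.499 and 2.471 in the sh-ctrl libraries, against 3.386, 3.345 and 3.144 in sh-KIF11. Its mean went from 2.417 ± 0.119 (SD, n = 3) to 3.292 ± 0.129 (SD, n = 3), with no overlap and a two-sided exact permutation p of 0.1, the smallest that the design allows. Transcripts of the activator thus gained on those of its repressor in all 3 sh-KIF11 libraries, on a scale of mRNA and not of protein.

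GCLM encodes the modifier subunit and GCLC the catalytic subunit of glutamate-cysteine ligase, the rate-limiting enzyme of glutathione synthesis. GCLM (chromosome 1, 93885205 to 93909456, minus strand) was at 36.84, 38.12 and 38.51 CPM in sh-ctrl and at 99.53, 104.4 and 114.1 CPM in sh-KIF11. No sh-KIF11 library came near the sh-ctrl range. The rise was 2.803-fold, with a log2 fold change of 1.49 (SE 0.0615, adjusted p = 6.79e-24, edgeR), and 94.1% of tested genes changed less. The raw counts behind these values were between 650 and 688 in sh-ctrl and between 1997 and 2251 in sh-KIF11.

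GCLC (chromosome 6, 53497341 to 53616970, minus strand) was at 109.5, 105.2 and 131.5 CPM in sh-ctrl and at 151.8, 161.5 and 164.4 CPM in sh-KIF11. The third sh-ctrl library stood above the other two but below every sh-KIF11 library. Its log2 fold change was 0.47 (SE 0.0593, adjusted p = 5.00e-09, edgeR). Both subunits rose, and the modifier rose more. The ratio of GCLC to GCLM in FPKM fell from 3.991, 3.785 and 4.719 in sh-ctrl to 2.063, 2.209 and 1.95 in sh-KIF11, that is from a mean of 4.165 ± 0.491 (SD, n = 3) to 2.074 ± 0.130 (SD, n = 3), with an exact permutation p of 0.1.

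**Figure D2:**
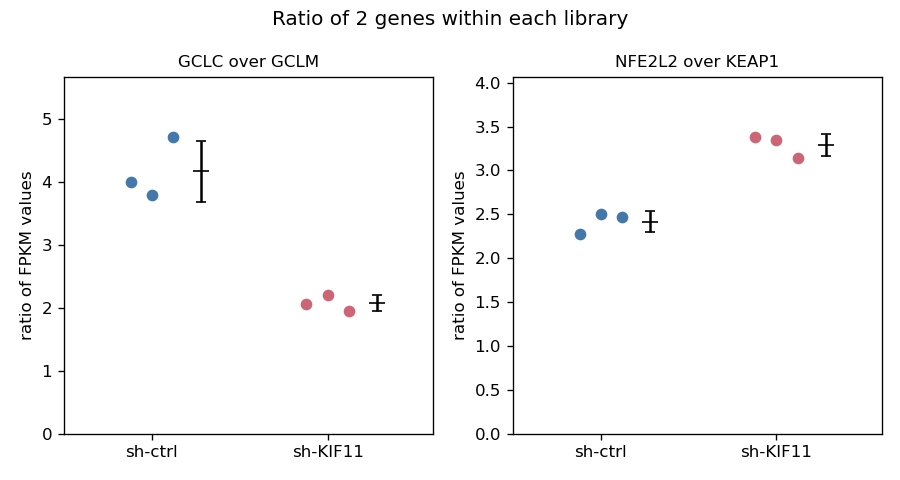
Ratio of FPKM values within each library (y axes from 0) for GCLC over GCLM and for NFE2L2 over KEAP1; points are libraries, sh-ctrl in blue and sh-KIF11 in red, and the black marks give the mean with 1 SD. The GCLC to GCLM ratio lies between 3.785 and 4.719 in sh-ctrl and between 1.95 and 2.209 in sh-KIF11, and the NFE2L2 to KEAP1 ratio is higher in all 3 sh-KIF11 libraries.

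The thioredoxin arm was represented by TXNRD1 and SRXN1. TXNRD1, the cytosolic thioredoxin reductase (chromosome 12, 104215779 to 104350305, plus strand), was at 364.3, 346.1 and 415 CPM in sh-ctrl and at 556.7, 620.5 and 651.4 CPM in sh-KIF11. The groups lay well apart. The log2 fold change was 0.70 (SE 0.0566, adjusted p = 2.29e-14, edgeR), the second largest rise of the 9 genes. The coding gene EID3 lies within the annotated span of TXNRD1 on the same strand.

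SRXN1 (chromosome 20, 646615 to 653370, minus strand) encodes sulfiredoxin, which returns over-oxidized peroxiredoxins to use. Its levels were 154.9, 137.5 and 147.8 CPM in sh-ctrl and 158.5, 180.2 and 189.9 CPM in sh-KIF11. The lowest sh-KIF11 library was only just above the highest sh-ctrl library. The log2 fold change was 0.26 (SE 0.0565, adjusted p = 7.59e-05, edgeR). The FPKM ratio of SRXN1 to TXNRD1 went from 0.596 ± 0.0490 to 0.445 ± 0.00492 (SD, n = 3 each, exact permutation p = 0.1), and was lower in every sh-KIF11 library than in any sh-ctrl library.

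HMOX1, heme oxygenase 1 (chromosome 22, 35380361 to 35394214, plus strand), breaks heme down to biliverdin, iron and carbon monoxide and is also repressed by BACH1. It was measured at 69.92, 67.71 and 65.29 CPM in sh-ctrl and at 87.62, 94.64 and 101.6 CPM in sh-KIF11. The ranges were apart, and the log2 fold change was 0.48 (SE 0.0583, adjusted p = 1.37e-09, edgeR). OSGIN1, a growth-inhibitor gene induced by oxidative stress (chromosome 16, 83948282 to 83966332, plus strand), was at 39.87, 37.07 and 35.25 CPM in sh-ctrl and at 43.01, 49.9 and 53.64 CPM in sh-KIF11. The OSGIN1 groups were close, with a log2 fold change of 0.38 (SE 0.0757, adjusted p = 2.24e-05, edgeR), the widest standard error among the 9 genes. The annotation places the coding gene AC009119.2 over part of OSGIN1 on the same strand, and AL121758.1 over part of SRXN1.

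NQO1 moved the other way. NQO1 (chromosome 16, 69706996 to 69726951, minus strand) encodes a quinone reductase and is among the most widely used reporters of NRF2 activity. Its levels were 1082, 1040 and 1138 CPM in sh-ctrl and 642.9, 646.8 and 694.7 CPM in sh-KIF11. Every sh-KIF11 library was far below every sh-ctrl library, a 1.643-fold fall, with a log2 fold change of -0.72 (SE 0.0490, adjusted p = 1.39e-16, edgeR). NQO1 rested on the largest counts of the 9 genes, between 12900 and 19290 in a library. The fall in NQO1 and the rise in TXNRD1 were nearly equal in size on the log2 scale, and 80.2% and 79.6% of tested genes changed less.

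**Figure D3:**
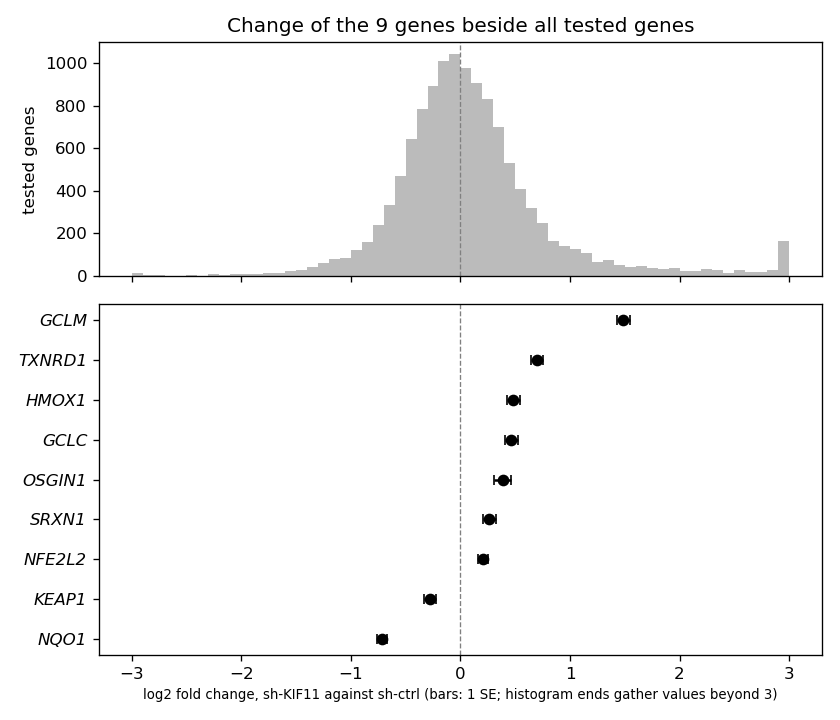
Upper panel, number of tested genes (y axis) by log2 fold change of sh-KIF11 against sh-ctrl, with values beyond 3 gathered in the end bars; lower panel, the log2 fold change of each of the 9 genes with 1 SE on the same axis. The 7 genes right of 0 run from 0.21 (NFE2L2) to 1.49 (GCLM), and KEAP1 (-0.28) and NQO1 (-0.72) lie left of it.

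Ordered by mean FPKM, NQO1 stood first in sh-ctrl (374.6), followed by TXNRD1 (77.8), NFE2L2 (59.19), SRXN1 (46.21), HMOX1 (32.3), KEAP1 (24.53), GCLC (24.06), OSGIN1 (12.94) and GCLM (5.775). KEAP1 and GCLC did not differ beyond their spread, as their ranges overlapped. In sh-KIF11 the order by FPKM was NQO1 (259.4), TXNRD1 (142.5), NFE2L2 (78.59), SRXN1 (63.39), HMOX1 (52.45), GCLC (37.31), KEAP1 (23.89), OSGIN1 (19.5) and GCLM (18.04). GCLC had moved above KEAP1, and OSGIN1 and GCLM now overlapped. NQO1 remained the most abundant of the 9 transcripts per length in both groups in spite of its fall.

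Promoter sequence was searched for the core of the antioxidant response element, TGACNNNGC, on both strands of the RefSeq windows of GRCh38.p14 that run from 250 bases before to 50 bases after an annotated start. Such a window was at hand for 8 of the 9 genes, all but HMOX1. The core was found in 3 of these, GCLM, KEAP1 and TXNRD1, and not in the windows of NFE2L2, NQO1, GCLC, SRXN1 or OSGIN1. Of all 27305 genes with such windows, 16.1% held it, and of all 35116 windows 13.3%. GCLM held 1 match, KEAP1 2 and TXNRD1 3. The sequences below are shown because they hold the match of the gene that rose most, one of the repressor that fell and one at each of the 2 annotated starts of TXNRD1, which rose second most. They are written 5′ to 3′ on the strand of the gene, with the match in capitals, which reads GCNNNGTCA where the core is on the other strand.
GCLM (chr1:93909446-93909474, minus strand): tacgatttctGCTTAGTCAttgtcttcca
KEAP1 (chr19:10502784-10502812, minus strand): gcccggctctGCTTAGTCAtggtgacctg
TXNRD1, upstream start (chr12:104215670-104215698, plus strand): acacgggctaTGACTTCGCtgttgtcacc
TXNRD1, downstream start (chr12:104286920-104286948, plus strand): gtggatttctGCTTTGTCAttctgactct
The GCLM match begins 34 bases before the annotated start. The KEAP1 match printed begins 31 bases before its start and holds the same 9 bases as that of GCLM, while the other KEAP1 match, TGACACGGC, begins 54 bases before the start and differs from it. The third TXNRD1 match, TGACGGAGC, begins 8 bases before the upstream start. In the GENCODE annotation the KEAP1 stretch and the stretch at the downstream TXNRD1 start lie wholly within an annotated untranslated exon of some transcript, the upstream TXNRD1 stretch in none, and 11 bases of the GCLM stretch lie in one. A match to these letters is a description of the window and not a measured binding site, and distal elements lie outside it.

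The wider machinery that controls NRF2 did not move as one. Of 13 tested genes of this kind, 3 were called higher, 6 lower and 4 neither, against 34.4% higher and 34.7% lower among all genes. Their median log2 fold change was -0.06, which turned positive under upper-quartile scaling (0.02), library totals alone (0.17) and limma on FPKM (0.12 and 0.14). The CNC factors related to NRF2 went apart. NFE2, the erythroid member, fell from 2.803, 4.599 and 3.022 CPM to 1.096, 1.063 and 1.268 CPM (log2 fold change -1.60), NFE2L1 fell (-0.42) and NFE2L3 rose (0.52). The library ranges of all 3 were apart, but NFE2 lies at the low end of detection.

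Among the small MAF partners, MAFF fell (-0.69), from a mean of 14.14 to 8.755 CPM. MAFK fell (-0.25) in the main comparison but was not called under library totals alone (adjusted p = 0.799) or under limma on FPKM. MAFG, the third of these partners, had overlapping ranges of 81.51 to 84.55 CPM and 78.84 to 81.89 CPM and a log2 fold change of -0.06 that was not called and turned to 0.17 with library totals alone. BACH1, the repressor that competes with NRF2 for the same elements, was at 27.59, 28.98 and 35.02 CPM in sh-ctrl and at 28.11, 31.16 and 32.3 CPM in sh-KIF11. Its log2 fold change of 0.00 (SE 0.0829) was not called, but was 0.23 (adjusted p = 0.0112) with library totals alone, and BACH2 was too low to be tested.

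Of the genes for the degradation of NRF2, CUL3, the ligase scaffold, rose by 0.18 on the log2 scale and RBX1, its RING partner, fell by 0.33, a call lost with library totals alone (adjusted p = 0.243) and under limma on FPKM. BTRC, which serves a KEAP1-independent route, had a log2 fold change of 0.12 that was not called (adjusted p = 0.0991, edgeR), but was called under 6 of the 15 alternatives. SQSTM1, the autophagy receptor that sequesters KEAP1, rose from 499.9, 456.6 and 452.6 CPM to 512.2, 539.1 and 604.6 CPM (log2 fold change 0.23). The coactivator gene CREBBP was at -0.04 and not called, turning to 0.19 with library totals alone.

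The other genes known as NRF2 targets were also divided, 15 of 32 higher, 10 lower and 7 not called, with a median of 0.09, beside 34.4% higher and 34.7% lower among all tested genes. With library totals alone 19 were higher and 4 lower. SLC48A1, a heme transporter of lysosomes, rose most, from 17.1, 14.46 and 15.05 CPM to 62.25, 69.61 and 73.93 CPM, a 4.415-fold rise (log2 fold change 2.14). ABCC3, an exporter of glucuronide and glutathione conjugates, went from 90.55, 87.38 and 85.38 CPM to 189.3, 205.3 and 201.5 CPM (1.18). GSTA2, a glutathione transferase, rose 2.222-fold (1.15), and AKR1C1, an aldo-keto reductase, fell 2.221-fold (-1.15), from a mean of 1360 to 612.3 CPM. The counts of GSTA2 and AKR1C1 are uncertain, since each has near-identical relatives that can share reads. The relatives AKR1C2 (0.10) and AKR1C3 (-0.03) were not called, nor was AKR1B10 (-0.11). In FPKM, AKR1C2 was higher in sh-KIF11 (150.1 to 168.9) than in sh-ctrl (136.0 to 139.8), so the fall of AKR1C1 does not stand for its family. With AKR1C1 and NQO1 both lower and SLC48A1, ABCC3 and GCLM more than 2-fold higher, the targets differed in direction as well as size.

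**Figure D4:**
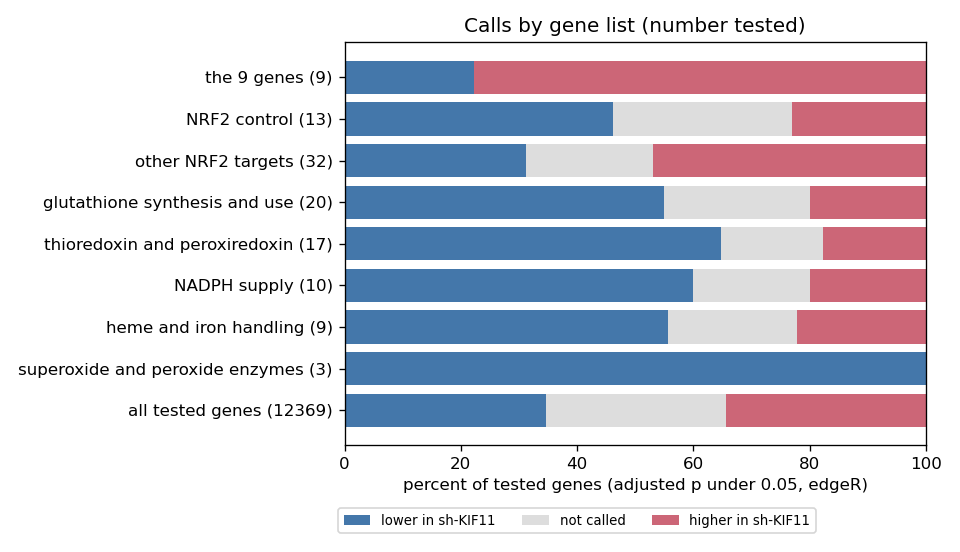
Percent of the tested genes of each list (x axis, number tested in brackets) that were called lower (blue), not called (grey) or called higher (red) in sh-KIF11 at an adjusted p under 0.05 in edgeR, with all 12369 tested genes in the bottom bar. Calls higher make up 77.8% of the 9 genes and 46.9% of the other NRF2 targets, and between 0% and 23.1% of the remaining lists. Among all tested genes they make up 34.4%.

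In glutathione synthesis and use, 4 of 20 tested genes were called higher, 11 lower and 5 neither (median -0.28), beside 34.4% and 34.7% of all tested genes. The balance turned with the scaling, to 9 higher and 5 lower (median -0.05) with library totals alone and to 7 higher and 5 lower under limma on FPKM. SLC7A11, the cystine importer that supplies this pathway, rose from 44.01, 38.4 and 46.33 CPM to 75.26, 82.56 and 86.86 CPM (log2 fold change 0.93). GGT5, a glutathione-cleaving enzyme of the cell surface, rose from 0.785, 0.388 and 0.474 CPM to 6.878, 5.894 and 7.504 CPM (3.60), a large change on a low level. Of the tested glutathione peroxidases, GPX2 fell by 0.93 and GPX4 by 0.85 on the log2 scale, and GPX1 (-0.45) and GPX3 (-0.85) with them, and these 4 were lower and called in all 15 alternatives. GPX7 went the other way, from 1.962, 1.551 and 1.541 CPM to 2.642, 3.527 and 2.434 CPM (0.77, adjusted p = 0.00505, edgeR), and GPX8, counted 0, 1 and 0 times in sh-ctrl against 5, 13 and 18 times in sh-KIF11, was too low to be tested. GSS, which completes glutathione synthesis after the GCLC and GCLM step, had a log2 fold change of 0.02 (SE 0.0525) and was not called, although its FPKM values of 28.26 to 30.1 in sh-ctrl lay below the 32.13 to 36.74 of sh-KIF11. GSR, which regenerates glutathione, fell by 0.27, while its FPKM ranges of 86.62 to 95.74 and 82.83 to 89.18 overlapped.

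In the thioredoxin and peroxiredoxin list 3 of 17 tested genes were called higher and 11 lower (median -0.26), beside 34.4% and 34.7% of all tested genes. With library totals alone the split was 6 higher and 7 lower (median -0.03), and under limma on FPKM 5 and 6. All 6 peroxiredoxins, PRDX1 to PRDX6, were called lower, with log2 fold changes between -0.76 (PRDX4) and -0.26 (PRDX3), and 5 of the 6 were called lower with library totals alone and under limma on FPKM. The peroxiredoxin genes thus went the opposite way to SRXN1, which rose. TXN, the substrate of TXNRD1, fell by 0.22 with the TMM factors, but its mean FPKM was 260.1 in sh-ctrl and 265.3 in sh-KIF11 with overlapping ranges. MSRB1, a methionine sulfoxide reductase, fell by 0.90. The 3 that rose were the thioredoxin inhibitor TXNIP (0.94) and the sestrins SESN2 (0.86) and SESN3 (2.31), of which SESN3 went from 1.346, 1.053 and 1.185 CPM to 5.732, 6.329 and 5.831 CPM.

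The NADPH list, which supplies the reducing power for GSR, TXNRD1 and NQO1, had 2 genes higher and 6 lower of 10 tested (median -0.21). Among all tested genes 34.4% were called higher and 34.7% lower. With library totals alone the split was 4 higher and 3 lower (median 0.02), and under limma on FPKM 3 and 3. Without the first or the second sh-KIF11 library 1 gene was called higher. IDH1, cytosolic isocitrate dehydrogenase, fell from 911.6, 920.0 and 1022 CPM to 489.3, 494.9 and 477.7 CPM (-0.96), and IDH2 (-0.66), TALDO1 (-0.47) and TKT (-0.31) were lower too. TKT was not called with library totals alone (adjusted p = 0.143) or under limma on FPKM.

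Heme and iron genes gave 2 higher and 5 lower of 9 (median -0.36), beside 34.4% and 34.7% of all tested genes. The split was 4 and 4 with library totals alone. SLC40A1, the iron exporter ferroportin, rose 2.191-fold (1.13) beside HMOX1, from 124.9, 128.8 and 145.8 CPM to 279.3, 286.5 and 309.6 CPM. BLVRB, a biliverdin reductase, fell by 0.52, HMOX2, the constitutive heme oxygenase, by 0.50 and FTL, the ferritin light chain, by 0.49 on the log2 scale. FTH1, the heavy chain, was at -0.10 and not called. Its FPKM values, however, were higher in sh-KIF11 (2055 to 2234) than in sh-ctrl (1858 to 2030). Both ferritin genes have processed pseudogenes that can share reads. HMOX1 and HMOX2 therefore changed in opposite directions. CAT (-0.37), SOD1 (-0.32) and SOD2 (-0.23), which remove hydrogen peroxide and superoxide, were all called lower, as were 34.7% of all tested genes. With library totals alone, however, SOD2 turned to 0.00 (adjusted p = 0.966, edgeR) and SOD1 was not called (adjusted p = 0.122, edgeR).

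Over the 7 wider lists together, 29 of 104 tested genes were called higher (27.9%) and 52 lower (50%), beside 34.4% and 34.7% of all tested genes. Their median log2 fold change was -0.13, and -0.20 without the third sh-KIF11 library. It was 0.10 with library totals alone, a scale that moved the median of all tested genes to 0.24. With that scale the split was 49 higher and 28 lower among the wider lists and 73.6% higher among all calls, against 49.8% in the main comparison. Taken relative to the median of all genes under each setting, KEAP1 ran from -0.32 to -0.15, NQO1 from -0.76 to -0.64, NFE2L2 from 0.17 to 0.29 and GCLM from 1.37 to 1.53.

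**Figure D5:**
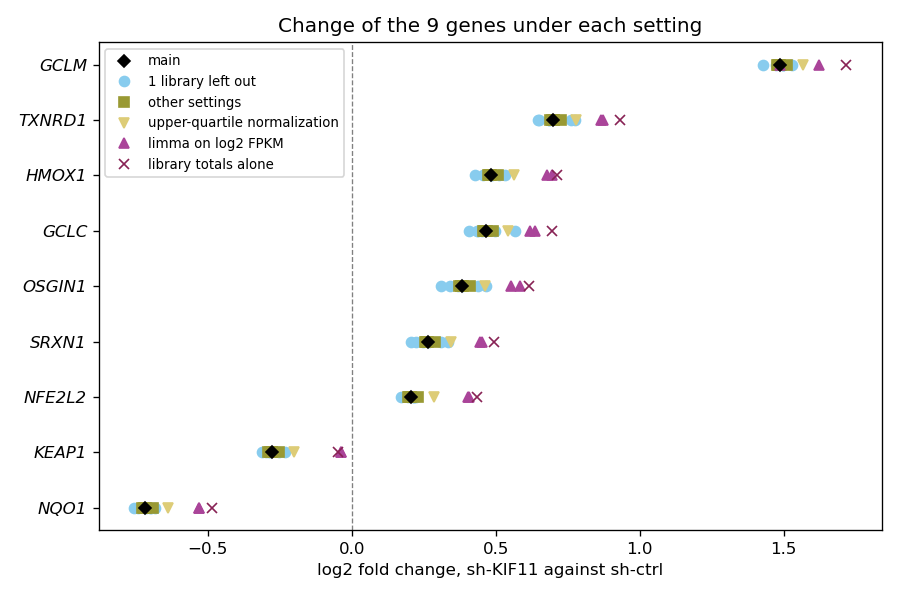
Log2 fold change of each of the 9 genes (x axis) in the main comparison (black diamonds) and under the 15 alternative settings, grouped by symbol. GCLM, TXNRD1, HMOX1, GCLC, OSGIN1, SRXN1 and NFE2L2 stay right of 0 and NQO1 left of it, while KEAP1 comes within -0.04 of 0 under limma on FPKM and -0.05 with library totals alone.

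The genes most alike in pattern to NFE2L2, NQO1 and HMOX1 were taken from 11752 tested genes by the root-mean-square difference of their centred log2 CPM over the 6 libraries. For NFE2L2 they were SETD2 (0.0180), TULP4 (0.0207) and CCDC88C (0.0243). For NQO1 they were C19orf70 (0.0303), TMEM258 (0.0307) and MAFF (0.0313), of which MAFF is one of the small MAF genes above. For HMOX1 they were CPT1A (0.00923), MKL1 (0.0180) and R3HCC1L (0.0238). The 3 genes most like NFE2L2 had log2 fold changes between 0.18 and 0.21, those most like NQO1 between -0.69 and -0.66 and those most like HMOX1 between 0.46 and 0.48. Like fold changes follow from this choice of genes, since the difference between the groups enters it, and are not a separate result.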

How the data were processed

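The authors deposited raw read counts per gene and, in a second table, FPKM values for the same genes, scaled by the authors to transcript length and library size. The submitters' processing notes name bcl2fastq 1.8.4, Trimmomatic, HISAT2 2.1.0, Cufflinks 2.2.1, HTSeq 0.9.1 and DESeq and the build GRCh38. The library kit was stranded, and the strand setting of the counting is not given in the sources used here. Groups came from the sample labels. The table columns named shRNA were taken as sh-KIF11, the only shRNA in the labels besides the control.

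Counts were fitted in R 4.3.3 with edgeR 4.0.16 (filterByExpr, TMM, quasi-likelihood test, group as the only term, Benjamini-Hochberg adjustment over all 12369 tested genes, threshold 0.05). SE is the log2 fold change divided by the square root of F. The biological coefficient of variation was 4.87%. The procedure was tried on simulated data with 200 changed genes among 12334, of which edgeR called 100%, with 9 other genes called. Far fewer genes changed in that simulation than were called here, so it does not bear on the scaling. Alternatives used DESeq2 1.42.0, limma 3.58.1 on log2(FPKM + 1) and log2(FPKM + 0.1), other scalings and filters, a replicate block, and each library left out. FPKM carries no TMM factor, which ran from 0.9216 to 0.9259 in sh-ctrl and from 1.08 to 1.086 in sh-KIF11. Read depth limits low genes. Libraries of the same group differed by more than counting error, with a chi-square per gene of 2.62 to 7.83. The largest values, 7.83 and 6.06, were those of the third sh-ctrl library against the other sh-ctrl libraries.

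The members and lists were chosen with earlier results of these data known. Named beyond the 9 genes and KIF11 were every tested gene of NRF2 control, and in each other list up to 4 genes with the largest change among those called, at a mean of at least 1 CPM and without overlap between groups. GPX1, GPX3, GPX7, GPX8, GSS, GSR, TXN, the peroxiredoxins, FTH1, AKR1C2, AKR1C3, AKR1B10, APOB, KRT8, KRT18 and the other genes of the closing observations were added outside this rule after their values were seen. Some genes that this rule names are not reported here. The motif was searched in RefSeq windows. The authors' annotation columns and the shRNA sequence were not used here.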

Additional observations from a re-analysis of the deposited data

How the results depend on the processing

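The 7 genes that rose, and NQO1, kept their direction and their call under all 15 alternatives, while KEAP1 kept its sign and lost its call under 3. With library totals alone 6621 genes were called higher and 2373 lower, and limma gave 2596 (FPKM + 1) and 2597 (FPKM + 0.1) lower. Under these 3 settings 1 of the 9 genes was called lower, with KEAP1 at -0.05 (adjusted p = 0.439), -0.04 (0.556) and -0.04 (0.555), and 28, 31 and 31 genes of the wider lists were lower; library totals alone called 49 of them higher. These 3 settings scale to library size alone, without TMM factors or other factors in their place. Not every gene named was followed under each setting, FTH1 and TXN among those left out, so turns of sign are listed only for those followed. The sign turned for SOD2 (0.0027, 0.0044 and 0.0045 in the same order). It also turned for MAFG (0.0198 with upper-quartile scaling, then 0.1718, 0.1500 and 0.1579) and for CREBBP (0.0359 with upper-quartile scaling, then 0.1879, 0.1180 and 0.1363). BACH1 turned as well (-0.0091 without the low-count filter and -0.0043 in DESeq2) and ran from -0.0613 to 0.1074 when 1 library was left out. The cause was not tested. With 1 library left out, between 3960 and 4428 genes were called higher and between 4002 and 4321 lower, the 9 genes gave 7 higher and 2 lower each time, the wider lists gave 26 to 32 higher and 50 to 53 lower, and KIF11 ran from -0.79 to -0.69. The replicate numbers did not pair the libraries, with correlations of the same number of 0.03, -0.0185 and -0.00253. The fit with a replicate block called 8607 genes against 8548, and 7 of the 9 genes higher and 2 lower as before. GGT5 gave no value with at least 10 counts in every library. Low depth limits NFE2, GGT5, SESN3, GPX7 and GSTP1 among the genes named, and BACH2 and GPX8 were too low to be tested.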

Other observations

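The 4 tested ABCC exporters of the wider lists, chosen after their values were seen, were all called higher in sh-KIF11. Among all tested genes 34.4% were called higher and 69.1% in either direction. ABCC1 was at 148.1, 144.1 and 131.2 CPM in sh-ctrl and at 310.0, 311.5 and 314.0 CPM in sh-KIF11 (log2 fold change 1.14), and ABCC2, the canalicular exporter of bilirubin and glutathione conjugates, at 567.0, 554.5 and 560.3 CPM and at 830.4, 855.2 and 866.1 CPM (0.60). ABCC3 (1.18) and ABCC4 (0.25) lay at the upper and lower end. All 4 were positive in the 15 alternatives, and in 2 of these, without the second sh-ctrl or the third sh-KIF11 library, 3 of the 4 were called.

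Enzymes of drug metabolism in the same list, also chosen after their values were seen, differed in direction. ALDH3A1, an aldehyde dehydrogenase, rose from 15.19, 12.36 and 10.49 CPM to 25.62, 27.34 and 31.23 CPM (1.14), and UGT1A1, which conjugates bilirubin, rose (0.78) while UGT1A6 fell (-0.46); the UGT1A genes share exons, so their counts are uncertain. Among the tested glutathione transferases GSTA1 (0.41), GSTA2 (1.15), GSTA4 (0.22) and GSTP1 (0.85) were called higher, the last 2 with overlapping library ranges. GSTP1 was low, with a mean of 1.69 CPM in sh-ctrl and 3.089 CPM in sh-KIF11. GSTM2 (-0.55), GSTM3 (-0.33), GSTM4 (-0.65) and the microsomal MGST2 (-0.63) were called lower, and MGST1 (-0.12) was not called. The GSTA and GSTM genes have near-identical relatives that can share reads.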
